A study of Mus musculus with 10 samples.

Results

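The regions described here are the stretches of the mouse genome at which an accessible-chromatin peak was called in each of 10 ATAC-seq libraries from the ventral tegmental area (VTA). The peak intervals of the 10 lists on chromosomes 1 to 19 and X were pooled and merged wherever they overlapped by at least 1 bp. A merged region was kept when it held a peak of all 10 lists. This gave 5296 regions of 74565 in all, or 7.10%. The regions were chosen by a measured value, the presence of a called peak in every list, so their presence everywhere is not a finding.

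The mice were adults older than 60 days, of genotype ArcCreERT2 x Sun1/+, and were either standard-reared or exposed to early-life stress. Nuclei carrying the Sun1-myc-sfGFP tag were drawn from the VTA nuclei on magnetic beads and are labelled activated, and the other class is labelled non-activated. There were 2 libraries of activated and 2 of non-activated nuclei from standard-reared mice, and 3 of each from stressed mice. Standard activated replicate 1 and stressed replicates 1 and 2 of each class came from males, and the other libraries from females. Sex was thus unequally split between the rearing groups, and it was not a term in any fit. Each library came from a single animal, 6 animals in all, of which 4 gave both classes. All groups carry both transgenes. The labels name no cell type and do not give the time at which nuclei were tagged.

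In ATAC-seq, the transposase Tn5 inserts adapters into DNA that is not wrapped in nucleosomes, so fragments pile up over promoters, enhancers and insulators. Sites accessible in nearly every sample of a tissue are typically promoters of broadly used genes and binding sites of CTCF, whereas enhancers vary more between cell types. Arc is an immediate early gene of neurons. In ArcCreERT2 mice its regulatory sequence drives a recombinase that works only in the presence of tamoxifen or a related compound, and recombination switches on the nuclear-envelope tag. The VTA holds dopamine, GABA and glutamate neurons beside glia, and capture by the tag does not choose among these neuron types by identity. Since Arc is a gene of neurons, the share of glia may differ between activated and non-activated nuclei, which was not tested. Which genes lie at the regions was not analysed here, so each region is named by its position in build mm39 (GRCm39).

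The libraries differed in ways that the labels do not name, and these differences touch the results below. The smallest peak of a list was 134 to 161 bp wide in 6 libraries and 210 to 250 bp in the other 4. The first set holds all 5 activated libraries and stressed non-activated replicate 1, and the second holds the remaining non-activated libraries. They are called the shorter-minimum and longer-minimum libraries here, a grouping made from the data. Lists ran from 7075 to 50771 peaks. The summit pileup is the number of fragments stacked at the strongest summit, as recovered from the deposited fold and p. Whether the caller counted whole fragments or extended reads is not given, and the counts are called fragments here. Its median in the 5296 regions was 23 to 71 fragments in the shorter-minimum libraries and 10 to 25 in the others. Stressed non-activated replicate 1 had the longest list and the highest pileup, and it sits with the activated libraries in several measures despite its label. Total read numbers are unknown from these files.

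The regions were wide. Their merged width had a median of 928 bp, with 638 bp at the 10th and 1366.5 bp at the 90th percentile and a range of 320 to 3678 bp. Regions with a peak in 5 to 9 lists had a median of 685 bp, those in 2 to 4 lists 374 bp and those in 1 list 208 bp. Merging more intervals widens a region, so this order is partly set by the rule. The 5296 regions covered 5.15 Mb, which was 18.2% of all bases in merged regions. A further 49141 regions, 65.9% of all, were called in 1 list only.

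**Figure D1:**
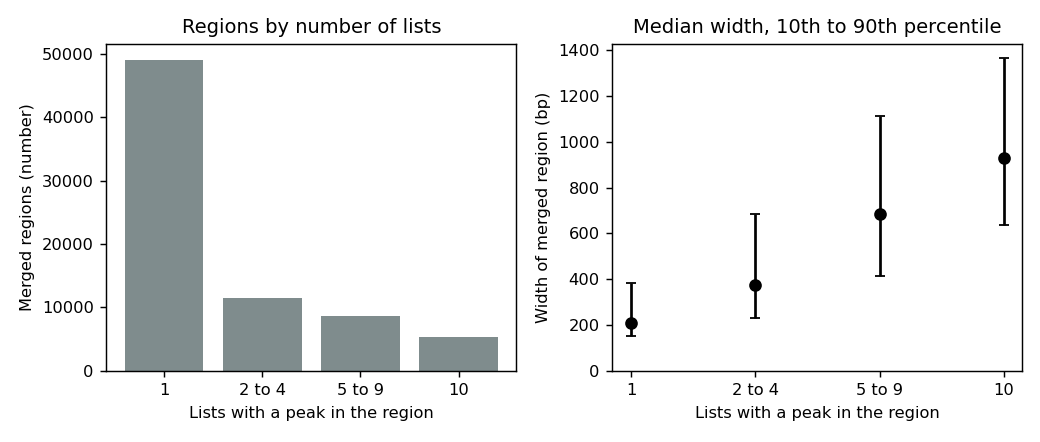
Left, number of merged regions by the number of lists with a peak in them. Right, their median width in bp, with bars from the 10th to the 90th percentile. Regions in all 10 lists number 5296 and have a median width of 928 bp, against 49141 regions of median 208 bp in 1 list.

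Most regions had a common centre. In 5214 of them (98.5%) some bases lay inside a peak of every list, and this shared core had a median length of 286 bp, or 31.7% of the merged width. In the other 82 the 10 lists overlapped only in chains. The strongest summits of the 10 lists lay within a median of 167.5 bp of one another. They lay within 150 bp in 44.2% of regions and within 500 bp in 93.8%. The median summit stood at 49.3% of the width from the lower coordinate, near the middle. In 602 regions (11.4%) every list called a single summit.

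Summits lay closer together where the peaks ranked higher. Each region's fold over background was ranked among the 5296 within its own list, and the rank was turned into a normal score, called the rank score (0 is the median region, positive values are higher). The 530 regions with the highest mean rank score had a median summit spread of 97 bp and a shared core of 390 bp. The 530 with the lowest had 264.5 bp and 165 bp. Their widths were close, with medians of 929.5 and 851 bp. Across the 5296 regions Spearman's rho between mean rank score and summit spread was -0.43, and that between mean rank score and width was 0.08. These are descriptions across regions of the same libraries, and the part of pileup in them was not tested.

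The regions took a very unequal share of each list. They held 10.9% of the peaks of stressed non-activated replicate 1 and 76.2% of those of standard non-activated replicate 1, which are the longest and the shortest list. Of the 1000 peaks with the highest fold, the regions held 744 and 869 in the standard activated libraries, and 842, 913 and 911 in the stressed activated libraries. They held 990 and 983 in the standard non-activated libraries, and 684, 985 and 990 in the stressed non-activated libraries. The lowest count, 684, was again that of stressed non-activated replicate 1. Within its whole list, the median region stood at a percentile (100 is the highest fold) between 60.4 and 90.7.

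**Figure D2:**
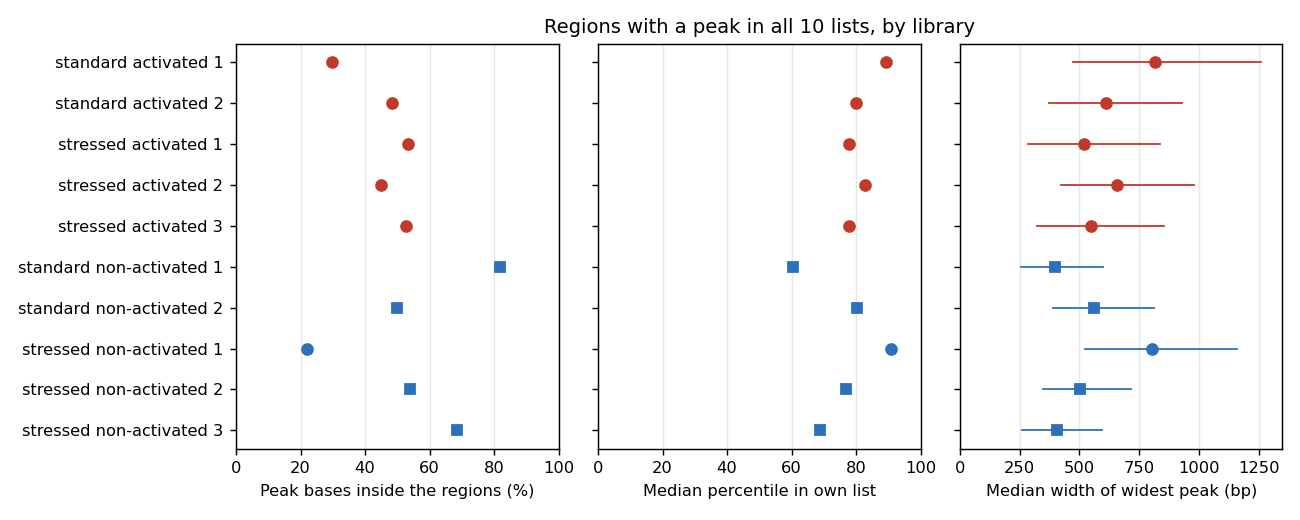
For each library, the share of peak bases inside the 5296 regions, the median percentile of the regions in the library's whole list, and the median width of the widest peak per region with a line from the 10th to the 90th percentile. Red marks activated and blue non-activated libraries, and circles and squares mark shorter- and longer-minimum libraries. The share of bases runs from 21.9% to 81.8%, and both extremes are non-activated libraries.

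Few regions ranked high in every list. List length bears on this, because the regions held 76.2% of the peaks of standard non-activated replicate 1 and 59.7% of those of stressed non-activated replicate 3, so most of them could not rank high there. The lowest of a region's 10 percentiles was at least 50 in 2186 regions (41.3%), at least 75 in 715 (13.5%) and at least 90 in 112 (2.11%). The region with the highest lowest percentile was chr12:78795269-78796326, 1058 bp wide, whose percentiles lay between 97.8 and 99.9. Next came chr1:177623428-177624478, with 97.5 to 100, and chr4:3938220-3939308, with 97.4 to 99.95. The other 7 of the first 10 were chr9:50919568-50920763, chr2:73216264-73217333, chr13:9143465-9144760, chr13:120151468-120152483, chr15:4024900-4025750, chr11:53781929-53782958 and chr5:32615965-32617057. All 10 were 851 to 1296 bp wide, and their summits lay within 67 to 149 bp.

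Regions just short of the rule mostly lacked a peak in the shortest lists. Of the 2214 regions with a peak in 9 lists, 1261 (57.0%) lacked one in standard non-activated replicate 1 and 729 (32.9%) in stressed non-activated replicate 3, the 2 shortest lists. Stressed non-activated replicate 2 accounted for 105 and each other library for 2 to 53. Just outside stood chr18:5989594-5990271, at percentile 85.8 or above in 9 lists and absent from stressed non-activated replicate 3. Just inside, the regions with the lowest single percentile were the chromosome 17 pair described next, which were low in every list. After them came chr8:26091428-26092768, lowest in standard non-activated replicate 1 (0.127), chr11:98248959-98249623, lowest in stressed activated replicate 1 (0.202), and chr19:4664986-4666138, lowest in standard activated replicate 2 (0.226). The lowest list thus differed among these named regions. Over all 5296 regions, the 10th percentile of their percentiles was 16.0 and 25.4 in the 2 shortest lists, against 38.2 to 73.1 in the other lists.

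A pair of regions on chromosome 17 went against the rest. The widest region, chr17:40154005-40157682, spanned 3678 bp and held 82 summit entries over the 10 lists, the most of any. Its neighbour chr17:40159024-40159667 lay 1.34 kb away. By fold, the wide region stood at or below percentile 0.181 in every list and its neighbour at or below 0.131. By pileup the order was the opposite. The wide region's summit held 231 and 183 fragments in the standard activated libraries, 161, 188 and 173 in the stressed activated libraries, 90 and 107 in the standard non-activated libraries and 199, 107 and 37 in the stressed non-activated libraries. It ranked 1st to 8th of 5296 by pileup in all 10 libraries. Its neighbour ranked 2nd to 14th. Fold and pileup thus placed this pair at opposite ends of the regions.

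The narrowest regions included one of the highest ranked by fold. The 5 narrowest spanned 320 to 387 bp, with a single summit in each list. Of these, chr9:123290874-123291260 stood at percentile 99.98 or above in all 6 shorter-minimum libraries, and at 97.9, 99.3, 96.0 and 89.2 in the longer-minimum libraries. By pileup it ranked 5th or 6th in the activated libraries. There it was 2189th in stressed non-activated replicate 1 and 757th to 1864th in the other non-activated libraries. It is among the regions called by activation below. Its shared core covered 307 of its 387 bp. The other 4 had median percentiles between 42.8 and 76.1.

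Spacing was uneven. The nearest other such region lay at a median of 70.6 kb. For 276 regions (5.21%) it lay within 10 kb, for 3228 (61.0%) within 100 kb, and for 147 beyond 1 Mb. The densest 1-Mb window, chr10:80000001-81000000, held 26, and chr17:24000001-25000000 held 20. Windows with 10 or more regions numbered 59 and held 13.9% of the regions. The longest stretch without one was 14.1 Mb on the X chromosome. The X held 88 regions, 0.537 per Mb, against 3.56 per Mb on chromosome 11 and 3.17 on chromosome 19, the densest chromosomes. This low density was not particular to these regions. Of all merged regions on the X, 7.61% had a peak in all 10 lists, against 7.10% over all chromosomes. Regions with a low mean rank score were the more crowded, with a median nearest distance of 40.0 kb for the lowest 530 and 106 kb for the highest 530.

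By fold, ranks were more alike within the sets of minimum peak width than across them, and by q less clearly so. Spearman's rho of fold over the 5296 regions was 0.61 to 0.75 among the 6 shorter-minimum libraries (15 pairs) and 0.52 to 0.67 among the 4 longer-minimum libraries (6 pairs). Between the sets it was 0.14 to 0.59 (24 pairs). In the 4 animals that gave both classes, rho between their classes was 0.36 to 0.61, and the highest was that of the 1 animal whose libraries both belong to the shorter-minimum set. Stressed non-activated replicate 1 had a rho of 0.61 to 0.64 with the activated libraries and 0.19 to 0.48 with the other non-activated ones. Ranked by q in place of fold, rho was 0.50 to 0.70 and 0.56 to 0.75 within the sets and 0.31 to 0.69 between them. By q, stressed non-activated replicate 1 had a rho of 0.50 to 0.64 with the activated and 0.47 to 0.60 with the other non-activated libraries, ranges that largely coincide. These values are descriptions, since all pairs share the regions and the libraries recur.

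**Figure D3:**
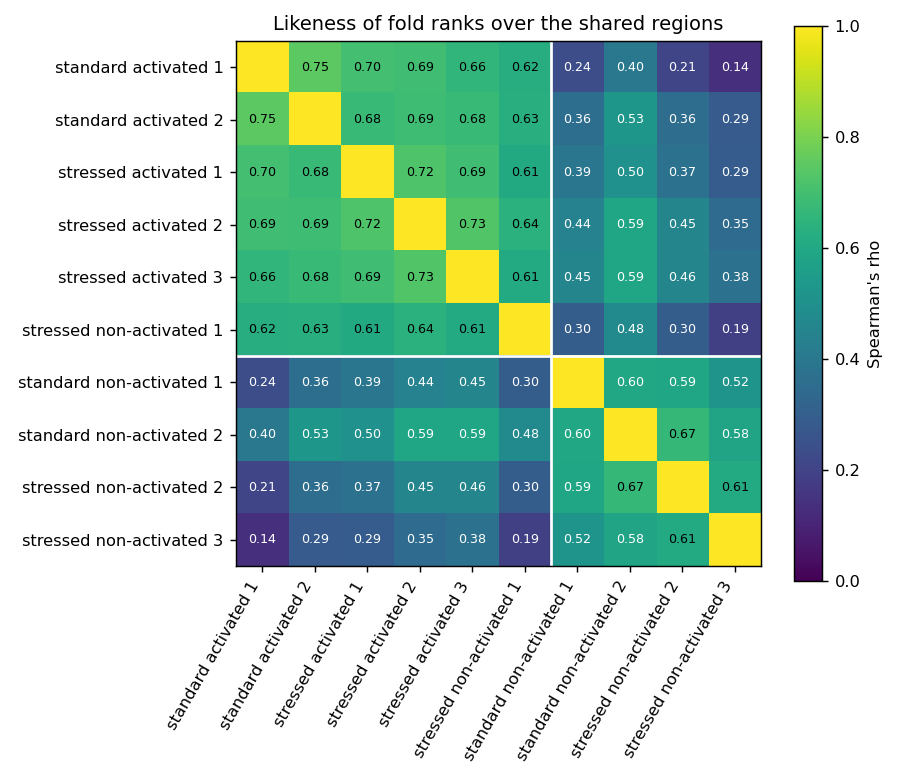
Spearman's rho between libraries of the fold ranks over the 5296 regions, with white lines between the shorter-minimum libraries (first 6) and the longer-minimum libraries (last 4). Stressed non-activated replicate 1 falls with the activated libraries, at 0.61 to 0.64.

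Whether peaks in the regions were wider in activated nuclei was asked first. The median width of the widest peak per region was 818 and 611.5 bp in standard activated, 518, 658 and 550 bp in stressed activated, 396 and 559 bp in standard non-activated and 802, 502.5 and 407 bp in stressed non-activated libraries. The classes overlapped. Libraries of 1 animal are not independent, and the tests over 10 libraries take no account of this unless an animal term is named. Mean log2 width was 9.28 ± 0.26 in activated (SD, n = 5) and 9.01 ± 0.41 in non-activated libraries (SD, n = 5), a difference of 0.27 (two-sided exact permutation test, p = 0.238, adjusted p = 0.357 over 3 tests). Without stressed non-activated replicate 1 the difference was 0.43 (exact permutation p = 0.0397, not adjusted). The classes then coincide with the minimum-width sets, so this value cannot be assigned to activation. Within the 6 shorter-minimum libraries the difference was -0.36, with 1 non-activated library. The longest lists, of 50771 and 39776 peaks, had medians of 802 and 818 bp. The shortest, of 7075 and 9007 peaks, had 396 and 407 bp. The part of list length was not tested. By rearing, the 6 stressed libraries averaged 9.13 ± 0.34 and the 4 standard-reared 9.17 ± 0.43 (SD), a difference of -0.043 (exact permutation p = 0.867, adjusted p = 0.867).

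Rank scores of single regions differed between activated and non-activated libraries at 295 of 5296 regions (5.57%; limma, Benjamini-Hochberg adjusted p under 0.05, rearing in the fit). Of these, 121 (2.28% of all) ranked higher in activated libraries and 174 (3.29%) lower. The scores of the classes did not overlap at all at 270 regions (5.1%), of which 124 were among the 295. The count was unstable: it was 1318 without stressed non-activated replicate 1, and 12 to 150 when any other single library was left out. It was 43 (0.812%) with animal as a block. Ranks of the summit pileup in place of fold gave 9. The balance of directions was no steadier. It was 25 higher and 18 lower with the block, 8 and 1 with pileup ranks, 23 and 23 with percentiles in place of normal scores, and 31 and 64 with ranks of q. Without standard activated replicate 1 it was 8 and 4, and without standard non-activated replicate 1 it was 19 and 14.

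Activation and minimum peak width ran nearly in parallel, and 1 library separates them. With the minimum-width set as a further term, 0 regions (0%) passed in limma, with 444 at an unadjusted p under 0.05 and a smallest adjusted p of 0.0924. In that same fit, 319 regions (6.02%) differed between shorter- and longer-minimum libraries. Since every activated library is a shorter-minimum library, that contrast sets only stressed non-activated replicate 1 against the longer-minimum libraries. It therefore cannot separate minimum peak width from what is particular to this 1 library, and no difference between the sets is concluded from it. The activation term of that fit rests on the same library. Within the 6 shorter-minimum libraries the non-activated arm is 1 library, stressed non-activated replicate 1, which is assumed to vary like the others. There 1 region passed, chr9:35216478-35216979, whose limma adjusted p was 0.0924 with the minimum-width term over all 10 libraries. The 2 factors cannot be told apart with these libraries.

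The region with the largest difference among those that ranked higher was chr5:146197642-146198222. Its rank score was 3.29 and 3.07 in standard activated and 3.07, 3.13 and 3.13 in stressed activated libraries, against 1.77 and -0.47 in standard non-activated and 1.20, 0.55 and -1.36 in stressed non-activated libraries. It was near the top of all activated lists and spread widely among the others, without overlap. The difference was 2.80 ± 0.45 (SE; limma adjusted p = 0.00484), and 1.73 with the minimum-width term (limma adjusted p = 0.511). With animal as a block it was 2.56 (limma adjusted p = 0.0114), a fit that does not separate activation from minimum peak width.

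The next regions followed by the same rule. At chr4:24897765-24898453 the activated scores were 0.78 to 2.63 and the non-activated -1.79 to 0.77, a difference of 2.45. The highest non-activated score there, 0.77, was that of stressed non-activated replicate 1. The regions chr11:108902447-108902953, chr3:153618249-153618971 and chr13:119624373-119625655 differed by 2.31, 2.19 and 2.06. With the minimum-width term the differences at these 4 were 0.84 to 1.17, with limma adjusted p of 0.64 to 0.75. With animal as a block they were 2.04 to 2.36 (limma adjusted p of 0.011 to 0.025).

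Of the regions that ranked lower in activated libraries, chr17:25105276-25106032 differed most. Its scores were -2.09 and -1.72 in standard activated and -1.07, -1.43 and -1.52 in stressed activated libraries, against 1.93 and 0.65 in standard non-activated and -0.50, 1.40 and 0.79 in stressed non-activated libraries. The only non-activated score below 0 was that of stressed non-activated replicate 1. The rank is of fold, and pileup did not follow it throughout. Summit pileup was 36 and 23 fragments in standard activated libraries, where the median region had 41 and 27. In stressed activated libraries it was 31, 38 and 28, above medians of 24, 32 and 23. In non-activated libraries it was 28 and 38 (standard) and 78, 27 and 14 (stressed), against medians of 12 and 25, and 71, 16 and 10. The difference in rank score was -2.42 ± 0.41 (SE; limma adjusted p = 0.00603), and -0.97 with the minimum-width term (limma adjusted p = 0.688). With animal as a block it was -2.34 (limma adjusted p = 0.0141). The other 4 were chr10:81213932-81214873 (-2.18), chr10:80096581-80097638 (-2.12), chr9:106353997-106354705 (-1.91) and chr10:80972605-80973914 (-1.91). With the minimum-width term the differences at these 4 were -1.47 to -0.29, with limma adjusted p of 0.51 to 0.92. With animal as a block they were -2.19 to -1.83 (limma adjusted p of 0.017 to 0.032). At the last region the lack of overlap was narrow, with -1.51 in stressed non-activated replicate 1 and at most -1.57 in activated libraries. Pileup was above the library's median in every activated library at the first and last of these, but not at the others.

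**Figure D4:**
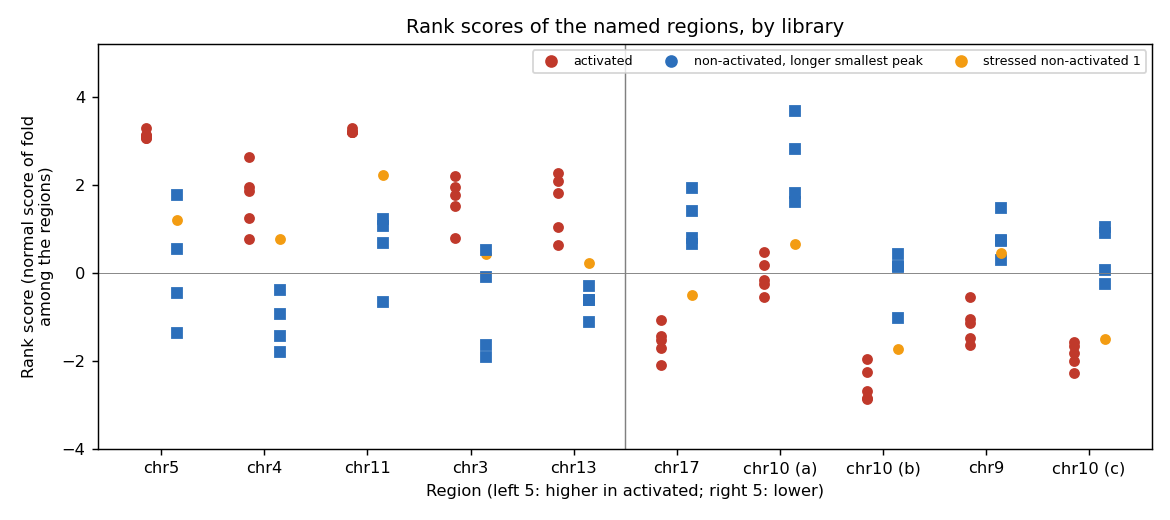
Rank score in each library of the 10 named regions, 5 higher and 5 lower in activated libraries, labelled by chromosome in the order of the text. Stressed non-activated replicate 1 (orange) was the non-activated library nearest the activated ones at 7 of the 10, for example at 0.77 against -1.79 to -0.39 in the other 4 at the chr4 region.

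The 174 regions that ranked lower lay closer to other regions than the 121 that ranked higher. Their nearest other region was at a median of 27.2 kb, against 105 kb for those that ranked higher and 70.6 kb for all 5296. Another region lay within 20 kb for 34.5% of those lower, 6.61% of those higher and 14.1% of all. Against 3.29% lower and 2.28% higher over all 5296 regions, chromosome 7 held 28 lower (7.43%) and 3 higher (0.796%) of its 377, and chromosome 10 held 26 lower (9.19%) and 2 higher (0.707%) of its 283. Chromosome 13 held 1 lower (0.526%) and 8 higher (4.21%) of 190. These chromosomes were picked after their counts were seen. In the densest window, chr10:80000001-81000000, 9 of 26 regions ranked lower and 0 higher. The median score of the 26 was -1.16 to -0.95 in the activated libraries, -0.56 in stressed non-activated replicate 1 and -0.27 to 0.51 in the other non-activated libraries. Stressed non-activated replicate 1 thus lay between the classes there. Other dense windows varied, with 1 of 20 lower in chr17:24000001-25000000, 3 of 18 in chr7:126000001-127000000 and 6 of 17 in chr7:44000001-45000000. It was 1 of 17 in chr6:83000001-84000000 and 2 of 17 in chr9:21000001-22000000, with 0 higher in any of these. In the chr6 window stressed non-activated replicate 1 had the highest median score, 0.11. In the chr17 window it had -0.13, within -0.23 to 0.10 in the other non-activated libraries. With the minimum-width term 0 of these calls passed.

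**Figure D5:**
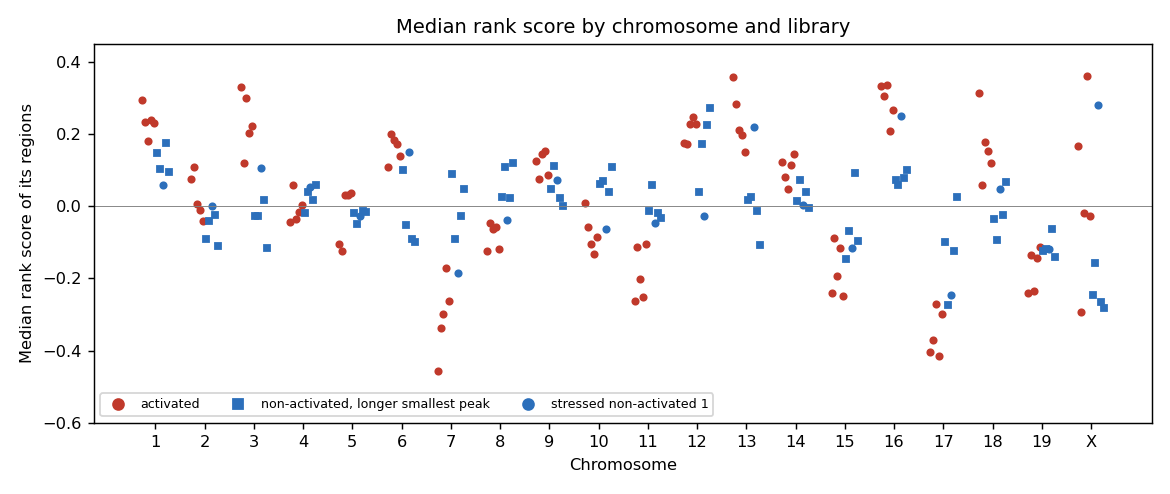
Median rank score of the regions of each chromosome in each library. Red marks activated and blue non-activated libraries, and circles and squares mark shorter- and longer-minimum libraries. On chromosome 7 the shorter-minimum libraries lie between -0.46 and -0.17 and the others between -0.09 and 0.09.

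Between stressed and standard-reared libraries, 0 of 5296 regions passed (0%; limma, smallest adjusted p = 0.998), with 190 at an unadjusted p under 0.05. With the minimum-width term 0 passed too, with 428 at an unadjusted p under 0.05 and a smallest limma adjusted p of 0.146. Within the shorter-minimum libraries 0 passed, with 475 at an unadjusted p under 0.05 and a smallest limma adjusted p of 0.0989. The scores of the rearing groups did not overlap at 29 regions (0.548%). In the fit of activation and rearing alone, the smallest p was that of chr11:22462242-22463007, which was not called. Its scores were 2.07, 1.65, 0.51 and 0.65 in the standard-reared libraries and -1.05 to 0.52 in the stressed ones, a difference of -1.40 ± 0.37 (SE; limma adjusted p = 0.998). The next were chr11:11882386-11882807 (1.501), chr1:55170036-55170970 (-1.42), chr13:74210075-74210615 (-1.37) and chr6:83142522-83143310 (-1.26), none of them called.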

How the data were processed

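The data are peak lists from bulk ATAC-seq, 1 for each of 10 libraries and none pooled. Per the submitters' processing notes, the build was mm39 and the tools named, with no role given, are MACS2 2.2.9.1, Bowtie2 2.4.5, fastp 0.23.4, R 4.4.2 and SAMtools 1.13. Caller settings, read shifts and duplicate removal: not given in the sources used here, and each could change the peaks called. The deposited fold is a linear ratio of summit pileup to background, the deposited p and q values are -log10, and the deposited score was not analysed. Folds were only ranked within a list.

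The regions, lists of tests and alternatives were chosen with earlier results of these data known. Groups came from the labels. Rank scores were tested with limma 3.58.1 (R 4.3.3), activation and rearing in the fit, Benjamini-Hochberg over 5296 regions. Widths were tested by two-sided exact permutation over libraries, adjusted over 3 tests. Merging and limma were tested on simulated data. With 200 regions moved in the activated libraries by 1, 1.5 or 2 score units, limma recovered 20.5%, 71.5% and 98% of them. False calls numbered 3, 8 and 12. The simulated scores had independent normal noise of equal size in every region and library. They held no outlying library, no minimum-width sets and no shared animals. The simulation therefore does not measure recovery or false calls in the real libraries. Differences by rearing were not simulated. The summit pileup was recovered as the whole number that gives both the fold and the p of a peak, and was found for 100% of peaks in the regions.

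Named regions were the 10 with the highest lowest percentile, the 5 widest, 5 narrowest and 5 with most summits, the regions nearest the edge of the rule, and, per contrast and direction, the 5 with the largest called difference without overlap or, with none called, the smallest p. Only the first of some sets is printed. The gene tables at hand are of another build than the lists, so nearest genes, promoter ranks, gene lists, cell type markers, motifs and sequences were not analysed here. Libraries of one animal were paired by the library names. The deviations of an animal's 2 libraries were taken from the means of their groups by activation and rearing, each library included in its mean. Their correlations were -0.01, 0.08, 0.03 and 0.07.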

Additional observations from a re-analysis of the deposited data

Results flagged for a closer look

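In 54 sets of 5 libraries of one activation class, 6 held a library whose gap to the nearest other was large for the set's range (Dixon's test at the 95% level), and chance alone flags about 1 in 20 sets. Stressed non-activated replicate 1 stood apart from the other 4 non-activated libraries in 4 of these measures. It held 684 of the regions' peaks among its 1000 highest folds, against 983 to 990. Its median summit pileup was 71 fragments, against 10 to 25. It had several summits in 50.9% of the regions, against 3.32% to 12.5%. Its median score of X regions minus that of autosomal regions was 0.29, against -0.29 to -0.16.

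The other flags were small gaps among the highest scores. At chr5:146197642-146198222 standard activated replicate 1 had a score of 3.29 against 3.07 to 3.13 in the other activated libraries. At chr11:108902447-108902953 standard activated replicate 2 had 3.29 against 3.20 in each of the others.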

How the results depend on the processing

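The number of regions with a peak in every list was 5296. It was 2862 with peaks of -log10 q of at least 5, 2965 with every list shortened to 7075 peaks, and 5298 to 6557 when 1 library was left out. Merging and chromosome choices kept it within 1.5 times. The count of regions ranking differently by activation was 295. It became 46 with percentiles in place of normal scores, 95 with q in place of fold, 43 with the replicate block, and 12 to 1318 with 1 library left out. Among alternatives added after seeing the data it was 0 with the minimum-width term, 9 with pileup ranks and 1 within the shorter-minimum libraries. The rearing count was 0 in every alternative run, though the smallest limma adjusted p fell to 0.0989 within the shorter-minimum libraries. For width by activation, the difference of 0.27 ran from 0.18 to 0.43 with 1 library left out, was 0.20 in the replicate block (exact sign-flip permutation over 4 animals, p = 0.625, smallest possible 0.125), and -0.36 within the shorter-minimum libraries. For width by rearing, the difference ran from -0.22 to 0.12 with 1 library left out. For X regions by sex (see the other observations), the difference was -0.051 with q in place of fold, 0.32 with the replicate block, 0.36 and -0.038 within the shorter- and longer-minimum sets, and 0.25 to 0.41 with 1 library left out. The cause of these changes was not tested. The planned gene 5' end shares and promoter ranks were not run. At the median pileup of a library, counting error alone was 11.9% to 31.6%.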

Other observations

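A difference in the rank of X regions by sex was noticed in these data and then tested on the same data. The median score of the 88 X regions minus that of the 5208 autosomal regions was 0.17, -0.02, 0.37, 0.29 and -0.27 in the 5 libraries of males, and -0.30, -0.03, -0.25, -0.16 and -0.29 in the 5 of females. The means were 0.11 ± 0.26 and -0.20 ± 0.11 (SD), a difference of 0.31 (two-sided exact permutation test, p = 0.0476, adjusted p = 0.143 over 3 tests). It failed the correction. Ranked by q the sign was reversed, at -0.051. With means per animal, 3 against 3, the exact permutation p was 0.1, the smallest this design allows. Of the 5 male libraries 4 are shorter-minimum libraries, against 2 of the 5 female ones. Within the shorter-minimum libraries the difference was 0.36 (4 male against 2 female, exact permutation p = 0.133), and within the longer-minimum libraries it was -0.038 (1 against 3, exact permutation p = 0.75).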
